A study of Mus musculus with 11 samples.

Results

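Regulatory T cells (Tregs) hold back immune responses, and their own activation is limited by feedback genes that T cell receptor signals switch on. The genes described here are 6 dual specificity phosphatases, Dusp1, Dusp2, Dusp4, Dusp5, Dusp6 and Dusp10, and 3 RNA-binding proteins, Zfp36, Zfp36l1 and Zfp36l2. They were found by symbol in a table of 10992 genes. All 9 were present, and all 9 were among the 10429 genes that passed the filter on low values. Poly(A) RNA was sequenced in bulk from sorted live Tregs of male mice aged 25 weeks, taken from visceral adipose tissue (VAT) or spleen. Every mouse carried Foxp3-YFPcre, a Cre recombinase driven from the Foxp3 gene and therefore active in Tregs. The wild-type mice (WT) had the genotype Foxp3-YFPcre Srebf2-WT/WT, and the knockout mice (KO) had Foxp3-YFPcre Srebf2-flox/flox, in which Cre can delete Srebf2, the gene of a transcription factor of cholesterol synthesis. For VAT there were 3 WT and 3 KO libraries, and for spleen 2 of each genotype. The labels do not say that replicate libraries are from different animals, so p-values measure the spread between these libraries only, which may be technical.

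Mitogen-activated protein kinases (MAPKs) carry signals from the T cell receptor, cytokine receptors and stress sensors to the nucleus. Dual specificity phosphatases of this family remove the activating phosphates from ERK, JNK or p38 kinases, and several of them are themselves transcribed when these kinases are active. Zfp36 proteins bind AU-rich elements in the 3′ untranslated regions of short-lived messenger RNAs, such as those of cytokines, and recruit the CCR4-NOT deadenylase, which starts the decay of the message. Both families thus act as brakes on activation, one on the kinases and the other on the transcripts.

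The labelled deletion was visible in the RNA. Srebf2 stood at 16.6, 15.6 and 30.5 RPKM (reads relative to the size of the library and the length of the gene) in VAT WT replicates 1 to 3, against 0.263, 0.600 and 1.23 RPKM in VAT KO. It was at 10.5 and 23.2 RPKM in spleen WT and at 2.59 and 1.59 RPKM in spleen KO. Foxp3, which defines Tregs, was at 13.3 to 16.4 RPKM in VAT and at 6.97 to 8.87 RPKM in spleen. The 2 spleen WT libraries resembled each other less (r = 0.932 across genes, which are not independent replicates) than libraries of any other group (r = 0.968 to 0.974), and spleen WT replicate 2 had the most genes listed at 0 (43). Where leaving out a spleen WT library changed a call reported below for a member or a refitted list gene, that value is given as well. The tissue differences of Rasgrp1, Ptpn22, Egr2, Btg1, Cnot6l, Edc3, Tnf, Bcl2 and Pecam1, and the genotype difference of Ctss, were not refitted. The read depth of the libraries is unknown.

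The 9 genes are short and simple in structure. Their spans run from 2219 bases (Dusp2) to 41256 bases (Dusp10), with a median of 22525.5 bases over the tested genes with a span, and Dusp10 alone is longer than that median. Of the tested genes, 5.31% are as short as Dusp1 (chr17:26505591-26508472, 2882 bases), 3.92% as short as Zfp36 (chr7:28376784-28379228, 2445 bases) and 3.25% as short as Dusp2 (chr2:127336159-127338377). The Zfp36 genes have 2 exons each, Dusp6 has 3 and the other phosphatase genes have 4, against a median of 9. Coordinates are those of GRCm38.p6, which is mm10, and count from 1. The library kit does not mark the strand, and annotated genes on the opposite strand overlap Dusp5, Zfp36, Zfp36l1 and Zfp36l2. Reads from these partners cannot be told apart from those of the 4 genes.

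Promoters are shown for the 3 genes with the largest tissue differences and for Dusp2, whose RNA was not higher in VAT. Each sequence is the 250 bases before the transcription start in RefSeq (GRCm38.p6), written 5′ to 3′ on the gene's strand, with motif matches in capitals. The motifs searched on both strands were the cAMP response element (CRE, TGACGTCA), its shorter form TGACG, the AP-1 site TGANTCA, the CArG box bound by serum response factor, and the sterol regulatory element TCACNCCAC.
Dusp1, chr17:26508473-26508722, minus strand: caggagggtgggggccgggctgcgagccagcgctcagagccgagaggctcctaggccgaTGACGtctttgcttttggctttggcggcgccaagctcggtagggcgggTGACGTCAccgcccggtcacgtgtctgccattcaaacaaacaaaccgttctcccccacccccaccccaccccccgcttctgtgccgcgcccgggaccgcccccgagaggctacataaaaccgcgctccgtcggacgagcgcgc
Dusp5, chr19:53528895-53529144, plus strand: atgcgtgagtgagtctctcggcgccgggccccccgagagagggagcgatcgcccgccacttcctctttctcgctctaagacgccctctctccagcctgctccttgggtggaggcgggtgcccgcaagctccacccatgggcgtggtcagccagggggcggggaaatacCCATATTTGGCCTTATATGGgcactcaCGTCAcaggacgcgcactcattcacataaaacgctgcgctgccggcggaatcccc
Zfp36, chr7:28379229-28379478, minus strand: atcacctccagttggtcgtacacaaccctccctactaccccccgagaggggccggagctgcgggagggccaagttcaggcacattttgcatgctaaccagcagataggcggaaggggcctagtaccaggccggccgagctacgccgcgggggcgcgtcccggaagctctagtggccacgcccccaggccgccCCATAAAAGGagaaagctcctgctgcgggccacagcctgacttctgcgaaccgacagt
Dusp2, chr2:127335909-127336158, plus strand: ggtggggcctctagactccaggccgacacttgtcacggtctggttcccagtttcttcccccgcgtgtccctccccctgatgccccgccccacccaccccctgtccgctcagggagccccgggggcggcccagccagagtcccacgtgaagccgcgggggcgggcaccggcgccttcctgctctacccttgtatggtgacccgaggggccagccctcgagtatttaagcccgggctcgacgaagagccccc
The Dusp1 promoter holds a full CRE at 143 to 136 bases before the start and a separate short form at 191 to 187 bases. In the Dusp5 promoter, 2 CArG boxes lie end to end at 82 to 73 and 72 to 63 bases before the start, with a short CRE form at 55 to 51 bases. The Zfp36 promoter holds 1 CArG box at 58 to 49 bases. None of the 5 motifs was found in this window of Dusp2.

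CArG boxes were thus present in 2 of the 7 members with a promoter sequence, Dusp5 and Zfp36, against 1.13% of the 10693 promoter entries of tested genes. The full CRE was present in 1 of 7 (Dusp1) against 2.77% of those entries. The short form, which also matches inside each full CRE, was present in 2 of 7 (Dusp1 and Dusp5) against 28.1%. An AP-1 match was present in 1 of 7, Zfp36l1, at 129 to 123 bases before the start, against 4.08%. The sterol regulatory element was present in 0 of 7 against 1.04%. Dusp6 and Dusp10, whose RNA was higher in VAT, held none of the motifs in this window, like Dusp2. A match describes the letters and is not a measured binding site.

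AU-rich elements of the kind that Zfp36 proteins bind were looked for as TATTTAT on the sense strand of the 3′ untranslated regions. The first match in each member that has one is shown with 10 bases on either side, the match in capitals (GRCm38, 5′ to 3′ on the gene's strand).
Dusp1, chr17:26506160-26506186, minus strand: agctggtcctTATTTATttaacacccc
Dusp2, chr2:127338305-127338331, plus strand: cagcactttaTATTTATatagaacatt
Zfp36, chr7:28376967-28376993, minus strand: gtgggcccttTATTTATgacgacttta
Zfp36l1, chr12:80108423-80108449, minus strand: tatcaaaacgTATTTATtgccaaacta
Zfp36l2, chr17:84184915-84184941, minus strand: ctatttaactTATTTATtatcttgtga
The 3 Zfp36 genes and Dusp1 have 3 matches each, a number that 3.38% of the 9983 genes with an annotated region reach. Dusp2 has 1, and 27.8% of genes have at least 1. Per kilobase, Dusp1 has 4.35 matches and Zfp36 has 3.88, densities reached by 0.881% and 1.16% of genes. Dusp2 (1.721), Zfp36l2 (1.647) and Zfp36l1 (1.635) are close to each other in density, reached by 4.32%, 4.62% and 4.70% of genes. Dusp4, Dusp5, Dusp6 and Dusp10 have 0 matches, as most genes do. The genes of the decay factors thus hold the letters of the element that their own proteins are known to bind, as do Dusp1 and Dusp2. Decay itself was not measured.

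The tissue separated most of these genes, though not Dusp2, far more than the genotype did. Of the 9 genes, 8 were higher in VAT Tregs than in spleen Tregs in both genotypes, led by Dusp1, Dusp5 and Zfp36, and for each of the 8 every VAT library lay above every spleen library. Dusp2 was the exception. In WT, 9 of 9 genes passed the test (limma on log2(RPKM + 1), Benjamini-Hochberg adjusted p under 0.05 over all genes tested), against 26.1% of all tested genes, and 8 of them were higher in VAT, against 10.7%. In KO, with other libraries, 8 of 9 passed, against 14.6%, and all 8 were higher in VAT, against 7.65%. The members were chosen with earlier results of these data known, so these shares are a description and not independent support. The median difference of the members was 1.75 on the log2 scale in WT and 2.06 in KO, while over all tested genes it was -0.12 and -0.09. Differences on the log2(RPKM + 1) scale understate the change of low genes. In bulk RNA, fewer cells that transcribe a gene and less RNA per cell cannot be told apart. Nor can tissue and its handling be told apart in any of these differences between VAT and spleen.

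**Figure D1:**
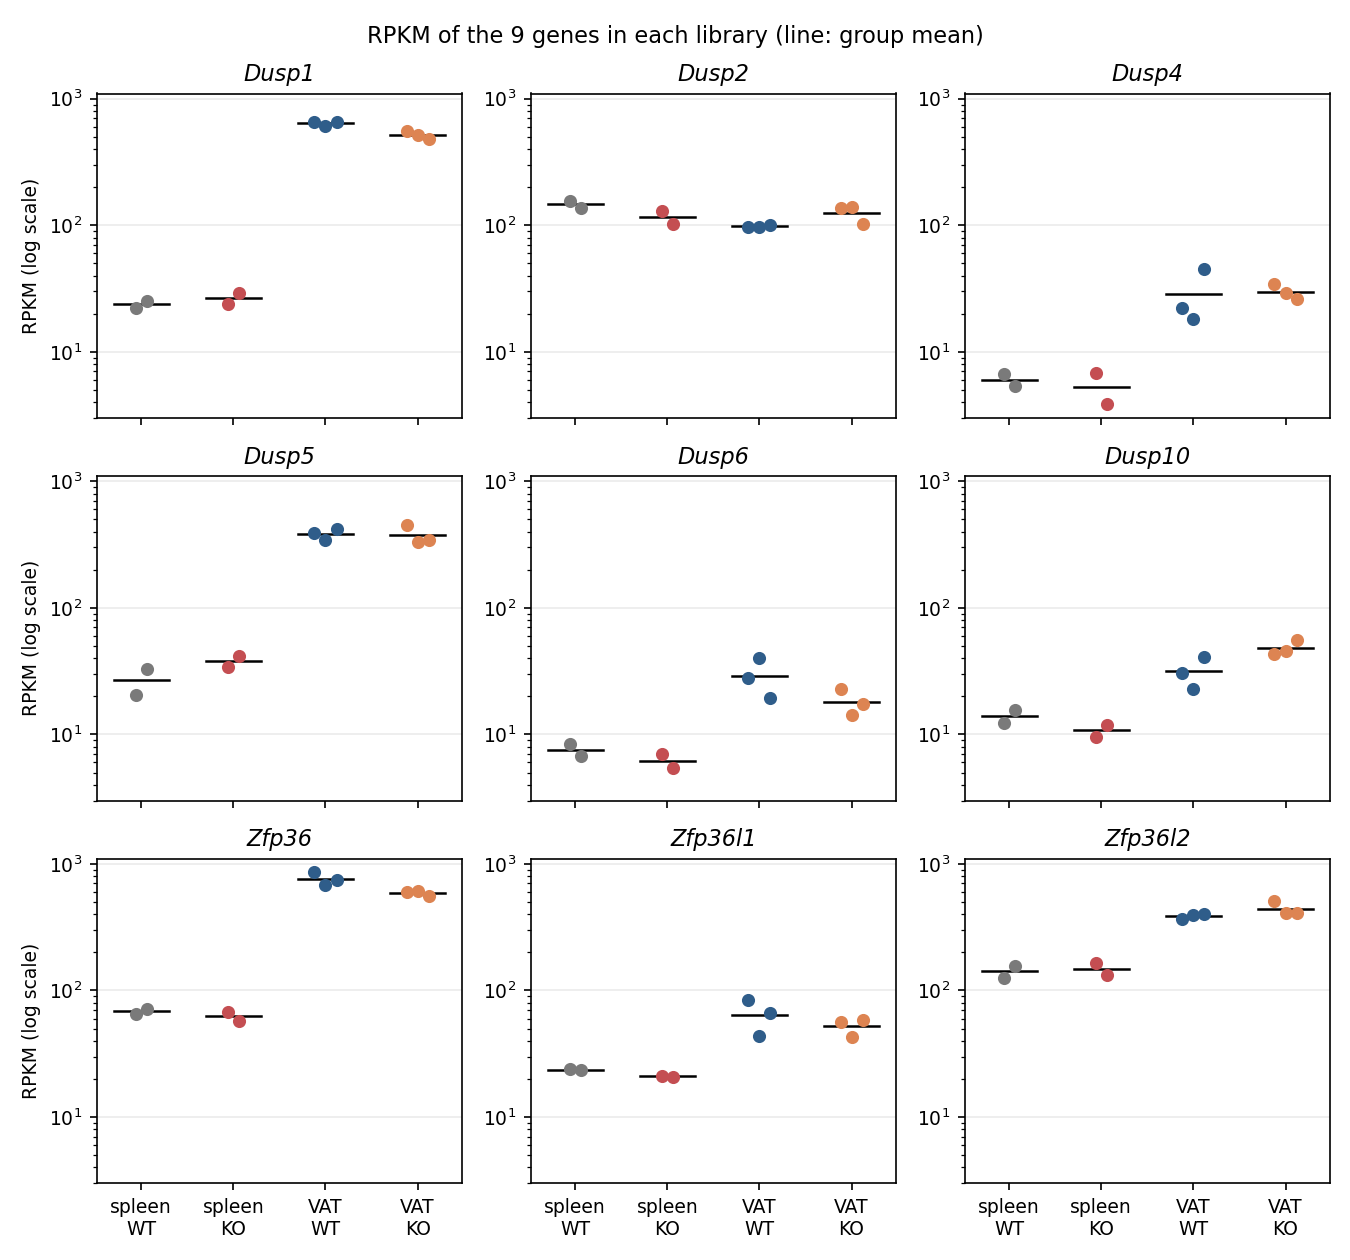
RPKM (log axis) of each of the 9 genes in each library, by tissue and genotype, with the group mean as a line. In every panel but that of Dusp2 the 6 VAT libraries sit above the 4 spleen libraries, with the widest gaps for Dusp1, Dusp5 and Zfp36.

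Dusp1, a nuclear phosphatase of p38, JNK and ERK that is itself an immediate early gene, had the largest difference. It was at 652, 608 and 657 RPKM in VAT WT replicates 1 to 3 and at 554, 513 and 484 RPKM in VAT KO. In spleen it was at 22.1 and 25.2 RPKM in WT replicates 2 and 3 and at 23.7 and 29.2 RPKM in KO replicates 2 and 3. The lowest VAT library was 16.6 times the highest spleen library. Means were 639 ± 26.8 RPKM (SD, n = 3) in VAT WT and 23.7 ± 2.22 RPKM (SD, n = 2) in spleen WT, a 27.0-fold ratio. The log2 difference was 4.70 ± 0.13 (SE, limma, adjusted p = 3.99e-10), second of all tested genes by p. In KO the ratio was 19.5 and the log2 difference 4.24 ± 0.13 (limma, adjusted p = 8.17e-10).

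Dusp5, a nuclear phosphatase specific for ERK, followed the same pattern from a similar level in spleen. Its values were 387, 346 and 421 RPKM in VAT WT and 455, 333 and 343 RPKM in VAT KO. The spleen libraries gave 20.5 and 33.2 RPKM in WT and 34.3 and 42.0 RPKM in KO. All VAT libraries were at least 7.94 times the highest spleen library. The mean was 385 ± 37.4 RPKM (SD, n = 3) in VAT WT against 26.8 ± 8.99 RPKM (SD, n = 2) in spleen WT, a ratio of 14.4. The log2 difference was 3.83 ± 0.20 in WT (limma, adjusted p = 4.66e-08) and 3.26 ± 0.20 in KO (adjusted p = 2.82e-07). Leaving out spleen WT replicate 2 gave a WT difference of 3.49, and leaving out replicate 3 gave 4.16, the widest swing of any member between these 2 fits, and both passed the test.

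Dusp6, the cytoplasmic ERK phosphatase of the set, was present at lower levels. It was at 27.7, 40.0 and 19.3 RPKM in VAT WT and at 22.9, 14.2 and 17.3 RPKM in VAT KO. Spleen values were 8.43 and 6.77 RPKM in WT and 7.0 and 5.44 RPKM in KO. The VAT libraries spread widely but stayed above spleen, the lowest at 1.69 times the highest spleen library. The difference on the log2 scale was 1.75 ± 0.28 in WT (limma, adjusted p = 0.000585) and 1.39 ± 0.28 in KO (adjusted p = 0.00465). Without spleen KO replicate 3 the KO value was 1.23 and no longer passed (adjusted p = 0.0649).

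Dusp4, a nuclear phosphatase related to Dusp1, was the lowest of the 9 in both spleen groups, although its range in spleen KO overlapped that of Dusp6. It was at 22.3, 18.3 and 45.5 RPKM in VAT WT and at 34.5, 28.9 and 26.2 RPKM in VAT KO. Spleen libraries held 6.66 and 5.41 RPKM in WT and 6.76 and 3.86 RPKM in KO. VAT WT replicate 3 stood above the other VAT WT libraries, and the lowest VAT library was 2.70 times the highest spleen library. Log2 differences of 1.97 ± 0.32 in WT (limma, adjusted p = 0.000758) and 2.32 ± 0.32 in KO (adjusted p = 0.000338) were found.

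Dusp10, which acts mainly on p38 and JNK, had the smallest tissue difference of the 8 genes in WT but not in KO. It was at 30.7, 22.7 and 41.0 RPKM in VAT WT and at 43.2, 45.2 and 55.7 RPKM in VAT KO. It reached 12.2 and 15.6 RPKM in spleen WT and 9.60 and 11.9 RPKM in spleen KO. The lowest VAT library was 1.45 times the highest spleen library. The log2 difference was 1.09 ± 0.23 in WT (limma, adjusted p = 0.00398) and 2.06 ± 0.23 in KO (adjusted p = 5.45e-05).

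Dusp2, a nuclear phosphatase known for its induction in activated lymphocytes, was the only member that was not higher in VAT. It was at 97.2, 97.4 and 101 RPKM in VAT WT and at 136, 139 and 102 RPKM in VAT KO. In spleen it was at 156 and 138 RPKM in WT and at 129.9 and 103 RPKM in KO. The WT groups did not overlap, with spleen higher, while the KO groups did. In WT the log2 difference of VAT minus spleen was -0.57 ± 0.16 (limma, adjusted p = 0.0210), and the VAT mean was 0.671 of the spleen mean. That call was lost when the libraries were scaled by median ratios (-0.43, adjusted p = 0.0785), with sample weights (adjusted p = 0.111), and without VAT WT replicate 1 (-0.56, 0.0560), VAT WT replicate 2 (-0.56, 0.0508) or spleen WT replicate 2 (-0.48, 0.0914). In KO the difference was 0.10 ± 0.16, with a 95% interval of -0.24 to 0.45.

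Zfp36 (tristetraprolin), the founding member of the decay factors, was the most abundant of the 9 genes per length in VAT. It was at 869, 681 and 744 RPKM in VAT WT and at 598, 607 and 554 RPKM in VAT KO. Spleen libraries were at 64.9 and 72.0 RPKM in WT and 67.7 and 57.0 RPKM in KO. The lowest VAT library was 7.70 times the highest spleen library. Means of 765 ± 95.6 RPKM (SD, n = 3) and 68.4 ± 5.02 RPKM (SD, n = 2) gave an 11.2-fold ratio in WT. On the log2 scale the difference was 3.46 ± 0.14 in WT (limma, adjusted p = 3.98e-09) and 3.22 ± 0.14 in KO (adjusted p = 1.39e-08).

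Zfp36l1 and Zfp36l2, paralogs with the same kind of zinc fingers, differed less between the tissues. Zfp36l1 was at 83.3, 43.4 and 66.1 RPKM in VAT WT, 56.8, 43.2 and 58.5 RPKM in VAT KO, 23.9 and 23.3 RPKM in spleen WT, and 21.3 and 20.8 RPKM in spleen KO. Its 4 spleen libraries lay close together and below all VAT libraries, with log2 differences of 1.36 ± 0.23 in WT (limma, adjusted p = 0.000977) and 1.28 ± 0.23 in KO (adjusted p = 0.00243). Zfp36l2 was at 369, 396 and 402 RPKM in VAT WT, 512, 406 and 412 RPKM in VAT KO, 126 and 156 RPKM in spleen WT, and 163 and 132 RPKM in spleen KO. It was already abundant in spleen, and its ratio of means was 2.75 in WT and 3.0 in KO. Log2 differences were 1.46 ± 0.15 in WT (limma, adjusted p = 2.19e-05) and 1.58 ± 0.15 in KO (adjusted p = 1.71e-05).

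**Figure D2:**
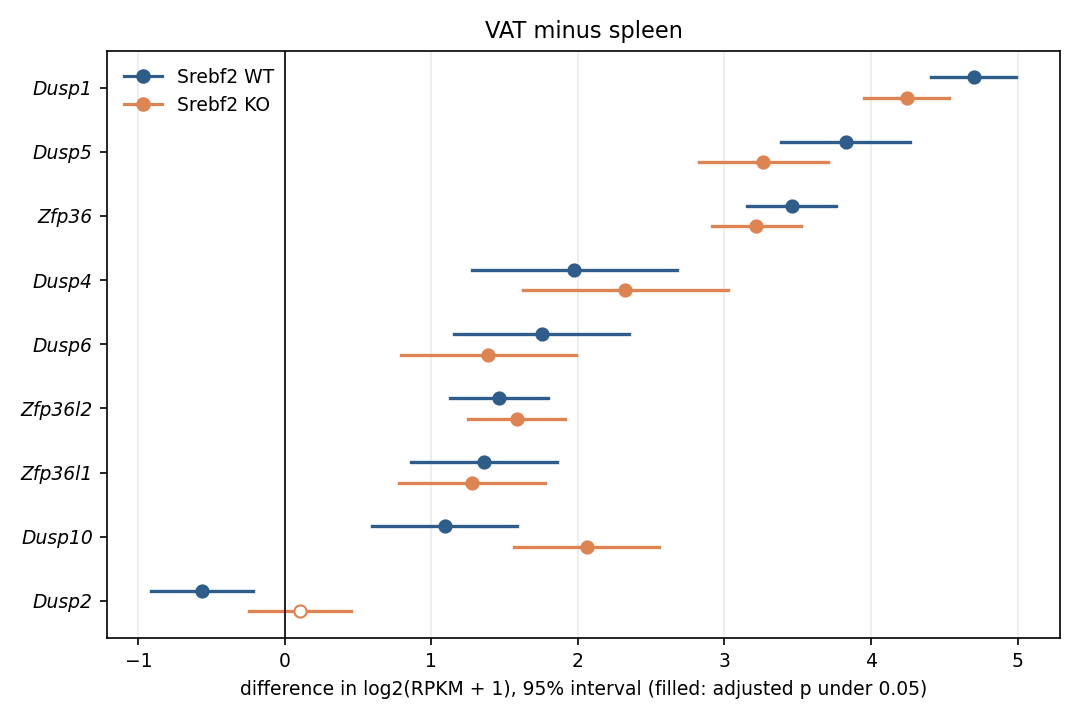
Difference between VAT and spleen in log2(RPKM + 1) for each gene, in Srebf2 WT and Srebf2 KO, with 95% intervals from limma; filled points passed the test. Dusp1, Dusp5 and Zfp36 lie between 3.22 and 4.70, 5 other genes between 1.09 and 2.32, and Dusp2 at -0.57 in WT and 0.10 in KO.

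Because the genes differed unequally, the make-up of both families differed between the tissues. Dusp2 made up 52.8% to 69.1% of the summed RPKM of the 6 phosphatases in the spleen libraries and 7.85% to 12.9% in the VAT libraries. Dusp1 made up 9.79% to 14.9% in spleen and 44.5% to 53.7% in VAT. Dusp5 accounted for 9.07% to 21.5% in spleen and 30.6% to 36.5% in VAT. The leading phosphatase transcript was thus Dusp2 in each spleen library and Dusp1 in each VAT library. Among the decay factors, Zfp36l2 led in each spleen library (58.7% to 64.7% of the family) and Zfp36 in each VAT library (51.3% to 65.8%). The summed level of the phosphatases was 196 to 226 RPKM in spleen and 1029 to 1285 RPKM in VAT. That of the Zfp36 family was 210 to 252 RPKM in spleen and 1025 to 1321 RPKM in VAT.

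By mean RPKM in VAT WT, Zfp36 came first and Dusp1 second, at or above 99.93% and 99.88% of all genes by mean level. Zfp36l2 and Dusp5 came next and overlapped each other. Dusp2 and then Zfp36l1 followed, and the lowest 3, Dusp10, Dusp6 and Dusp4, overlapped one another in turn. In VAT KO the order began with the same 5 genes, but Dusp1, Zfp36l2 and Dusp5 overlapped their neighbours, as did Zfp36l1 and Dusp10. In spleen WT, Dusp2 and Zfp36l2 came first and overlapped, Zfp36 followed, and Dusp5, Dusp1 and Zfp36l1 overlapped in turn. Spleen KO began with Zfp36l2, Dusp2 and Zfp36, with no overlap among them. Dusp1 stood above 82.3% of genes in spleen WT, and Zfp36 above 95.2%.

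The members differed in how closely libraries of one group agreed. The pooled SD within groups on the log2 scale was 0.12 for Dusp1, 0.14 for Zfp36, 0.17 for Zfp36l2 and 0.18 for Dusp2, below the median of 0.25 over all genes. It was 0.27 for Dusp5, 0.29 for Dusp10, 0.30 for Zfp36l1, 0.37 for Dusp6 and 0.45 for Dusp4. Dusp4 and Dusp6 therefore had the widest intervals in each comparison.

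The genes whose log2 profile over the 10 libraries came closest to each member, among the 6619 tested genes averaging 5 RPKM or more, are given as a description, measured as the root mean square difference of centred values. Dusp1 was closest to Fosl2 (0.15), then to Fosb and Nr4a1, all of them immediate early genes that encode transcription factors. Fosl2 and Fosb had means of only 0.2955 and 0.0095 RPKM in spleen WT, and the log2 scale used understates the change of such low genes. Their VAT WT means were 33.1 and 29.5 RPKM, so in RPKM both differed by a larger ratio than Dusp1. The closeness of Fosl2 and Fosb to Dusp1 therefore depends on that scale. Nr4a1 was not low in spleen WT (mean 22.7 RPKM). Dusp5 was closest to Nfkbid (0.18), an inhibitor of the NF-kB family, and Dusp6 to Klf10 (0.21), a zinc finger transcription factor. Zfp36 was closest to Irs2 (0.19), an adaptor of the insulin receptor. Zfp36l1 was closest to Tagln2 (0.19), Zfp36l2 to Adam19 (0.14), Dusp4 to Dennd4a (0.26) and Dusp10 to Mxd1 (0.26). Dusp2, with a nearly flat profile (0.25 around its own mean), was closest to Mrps2 (0.11), which encodes a mitochondrial ribosomal protein. Within the set, Zfp36l1 and Zfp36l2 (0.34) and Dusp5 and Zfp36 (0.34) were the most alike. The points share the same libraries.

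Between KO and WT in VAT no member passed the test. Every KO library lay below every WT library for Dusp1 and Zfp36 and above every WT library for Dusp10, Dusp2 and Zfp36l2, with differences far smaller than those between the tissues for Dusp1 and Zfp36. By limma 0 of 9 members passed, against 0.422% of all tested genes (44 genes). An unadjusted p under 0.05 was found for 5 of 9, against 767 of the 10429 tested genes. Ranges did not overlap between KO and WT for 5 of 9 members, against 15.1% of all genes. The members' median difference was -0.04 on the log2 scale, and that of all genes was 0.02.

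Zfp36 had means of 765 ± 95.6 RPKM in WT and 586 ± 28 RPKM in KO (SD, n = 3 each), a log2 difference of -0.38 ± 0.13 with a 95% interval of -0.65 to -0.10 that did not pass after adjustment (limma, adjusted p = 0.413). With quantile normalization this shrank to -0.08. For Dusp1 the means were 639 ± 26.8 and 517 ± 35.0 RPKM, with a difference of -0.31 ± 0.12 (adjusted p = 0.542), or -0.14 with quantile normalization. Dusp10 had means of 31.5 ± 9.15 RPKM in WT and 48.0 ± 6.67 RPKM in KO, a difference of 0.63 ± 0.20 (adjusted p = 0.391), the smallest p of the 9. All 3 KO libraries of Dusp10 lay above the highest WT library, by a margin of 43.2 against 41.0 RPKM at the closest. For Dusp2 the means were 98.5 ± 2.05 and 126 ± 20.3 RPKM, a difference of 0.34 ± 0.14 (adjusted p = 0.623), with VAT KO replicate 3 at 102 RPKM close to the WT libraries.

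Dusp6 had a difference of -0.62 ± 0.25 (limma, adjusted p = 0.558), or -0.36 without VAT WT replicate 2, and its ranges overlapped. Zfp36l2 differed by 0.18 ± 0.14 (adjusted p = 0.950), and its KO libraries began just above the highest WT library, at 406 against 402 RPKM. The intervals for the other 3 members spanned 0 widely, at -0.47 to 0.78 for Dusp4, -0.43 to 0.36 for Dusp5 and -0.69 to 0.20 for Zfp36l1. These values do not show that the genes were alike in KO and WT.

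In spleen, no member and no other gene passed the test between KO and WT (limma, 0% of tested genes, smallest adjusted p = 0.244). Of the 10429 tested genes, 873 had an unadjusted p under 0.05. Of the 9 members, 1 did, Dusp5, which had means of 26.8 ± 8.99 RPKM in WT and 38.1 ± 5.45 RPKM in KO (SD, n = 2 each) and a difference of 0.52 ± 0.22 (adjusted p = 0.594). Without spleen WT replicate 3 the Dusp5 difference was 0.86 and passed (adjusted p = 0.0202), in a fit that called 13.4% of all genes. Without spleen WT replicate 2 it was 0.19. The ranges of Dusp5, Dusp2, Dusp10 and Zfp36l1 did not overlap between KO and WT, 4 of 9 members, against 32.6% of all genes. Of these, Dusp5 was higher in KO and the other 3 were lower, with differences of -0.34 for Dusp2 (-0.17 without spleen KO replicate 3), -0.34 for Dusp10 (-0.18 without spleen WT replicate 3) and -0.16 for Zfp36l1. For the 5 members whose ranges overlapped, differences ran from -0.25 for Dusp6 to 0.15 for Dusp1.

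**Figure D3:**
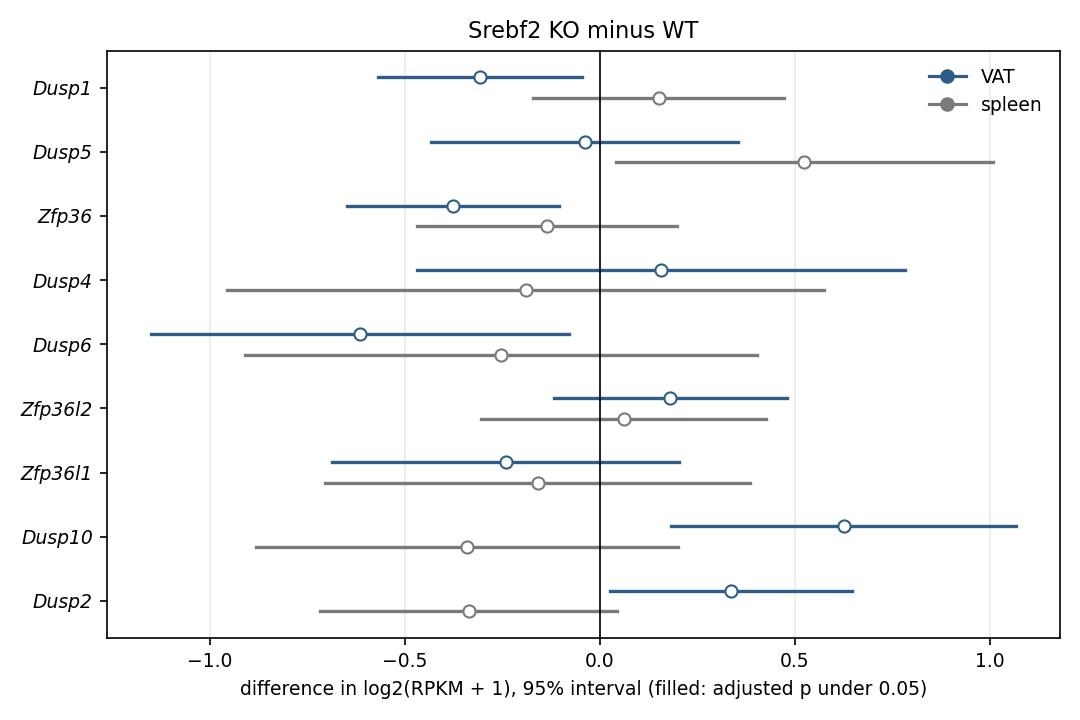
Difference between Srebf2 KO and Srebf2 WT in log2(RPKM + 1) for each gene, in VAT and in spleen, with 95% intervals from limma; no point passed the test. Dusp10 and Dusp2 lie above 0 in VAT (0.63 and 0.34) and below 0 in spleen (-0.34 for both).

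Whether the genotype difference itself depended on the tissue was tested with the interaction term, and 0 of 9 members passed (limma, 0% of all tested genes). An unadjusted p under 0.05 was found for 738 of the 10429 tested genes. Dusp10 had the largest interaction, 0.97 ± 0.32 on the log2 scale (95% interval 0.27 to 1.67, adjusted p = 0.621), because KO was above WT in VAT and below it in spleen. Dusp2 showed the same signs, at 0.67 ± 0.23 (0.18 to 1.16, adjusted p = 0.621). For Dusp1 the interaction was -0.46 ± 0.19 (adjusted p = 0.686), and for Dusp5 it was -0.56 ± 0.29 (adjusted p = 0.728). Leaving out spleen WT replicate 2 gave -0.23 for Dusp5, and leaving out replicate 3 gave -0.90. Dusp10, Dusp2 and Dusp1 were the 3 members with an unadjusted p under 0.05.

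The rest of the pathway was read from lists, for which counts and medians are given as descriptions. The lists, like the members, were chosen with earlier results of these data known. Between the tissues, 26.1% of all tested genes passed the test in either direction in WT and 14.6% in KO. The kinases upstream of the phosphatases and the enzymes that work with the Zfp36 proteins passed no more often than that in WT. The immediate early genes and the Zfp36 targets mostly passed. Of 25 MAPK kinases and Ras activators, 4 passed in WT, all higher in VAT, and the median difference was 0.09. They were Map3k8 (1.43 ± 0.25, limma, adjusted p = 0.00142), a kinase upstream of ERK, Map2k3 (1.24 ± 0.17), which activates p38, Mapkapk3 (0.93 ± 0.16), a kinase downstream of p38, and Rasgrp1 (0.82 ± 0.19), a Ras activator in T cells that was named after its value was seen. Of 10 other dual specificity phosphatases that were tested, 2 passed in WT, Dusp22 (means 4.36 RPKM in VAT and 1.17 RPKM in spleen) and Dusp7 (32.9 and 20.2 RPKM). The Dusp7 call (0.73, adjusted p = 0.0403) was lost in 11 alternatives, among them the fit without spleen WT replicate 2 (0.27, adjusted p = 0.384). In KO, 3 of the 10 passed, Dusp14, Dusp8 and Dusp3, with means below 6 RPKM in both tissues, and the calls of Dusp14 and Dusp3 were lost without spleen KO replicate 3 (adjusted p = 0.0721 and 0.0849).

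Other brakes on Ras and MAPK signalling moved both ways, with a share called in WT near the 26.1% of all tested genes. Of 13 tested, 2 were higher in VAT in WT, Spry1 (1.34 ± 0.24), an inhibitor of receptor signalling to Ras, and Dok2 (0.81 ± 0.14), an adaptor that recruits a Ras inactivator. The 2 lower ones were the phosphatases Ptpn6 (20.3 RPKM in VAT against 70.9 RPKM in spleen, log2 difference -1.72 ± 0.20, limma, adjusted p = 4.96e-05) and Ptpn22 (-0.70 ± 0.17), the latter named after its value was seen. In KO, Ptpn6 was lower as well (-1.39 ± 0.20), and Spry1 was higher (1.01 ± 0.24), a call lost without either spleen KO library (adjusted p = 0.0576 and 0.131). The list's median was 0.03 in WT and -0.09 in KO.

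Of 19 immediate early genes known to be induced by MAPK signals, 14 were higher in VAT in WT, against 10.7% of all tested genes. Another 2 were lower, and the median difference was 2.57. In KO 14 were higher and 0 lower, with a median of 2.21. Fos, a subunit of AP-1, was at 550 to 691 RPKM in VAT WT and at 1.16 and 3.05 RPKM in spleen WT. Junb, its partner, had means of 2255 and 193 RPKM (log2 difference 3.55 ± 0.14, limma, adjusted p = 3.08e-09), and Atf3, a stress-induced factor, had means of 131 and 0.270 RPKM. Egr2, a T cell receptor target, and Btg1, an antiproliferative gene, were the 2 lower ones (-1.72, adjusted p = 0.0248, and -0.47, adjusted p = 0.0345), named after their values were seen. Immediate early genes are also known to rise while tissue is digested and cells are sorted. The digestion steps are not given in the labels. Tissue and its handling cannot be told apart here for these genes, the members, the Zfp36 targets or the other lists.

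The transcripts known as targets of Zfp36 proteins were mostly higher, not lower, where Zfp36 was high. Of 15 tested, 11 were higher in VAT in WT, against 10.7% of all tested genes, and 1 was lower, with a median of 2.83. The counts were the same in KO, with a median of 2.94. Cxcl2, a chemokine, was at a mean of 221 RPKM in VAT WT and was listed at 0 in one of the spleen WT libraries, whose mean was 0.0120 RPKM. Tnfaip3, an inhibitor of NF-kB signalling, had means of 305 and 14.3 RPKM (4.35 ± 0.21, limma, adjusted p = 2.20e-08), and Nfkbid had means of 502 and 27.9 RPKM (4.13 ± 0.20). Tnf, the first described target, had means of 34.2 and 11.6 RPKM (1.48 ± 0.18) and was named for that role. The lower one was Bcl2, a survival factor, at 10.5 RPKM in VAT WT and 46.5 RPKM in spleen WT (-2.06 ± 0.17, adjusted p = 2.03e-06). Ier3, Myc and Cd69 belong to this list and to the immediate early genes.

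Of 23 genes for CCR4-NOT, deadenylation and decapping, 3 were higher in VAT in WT and 2 lower, a number near the 26.1% of all genes called in either direction. Differences ran from -1.21 to 1.49, with a median of -0.01. Tob2 (1.49 ± 0.22) and Tob1 (1.39 ± 0.23), adaptors of the deadenylase, and Cnot6l (1.24 ± 0.25), one of its catalytic subunits, were the higher ones. Parn, a separate deadenylase (-1.21 ± 0.21), and Edc3 (-0.72 ± 0.19), a decapping factor, were the lower ones, and Cnot6l and Edc3 were named after their values were seen. Of 14 other RNA-binding regulators of decay, Zc3h12a (regnase), an endonuclease, was higher (1.6 ± 0.24, limma, adjusted p = 0.000374), and its relative Zc3h12d was lower (-1.81 ± 0.22, adjusted p = 6.40e-05). In KO, Zc3h12a was higher as well (1.95 ± 0.24), and it was the only one of the 14 that passed.

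**Figure D4:**
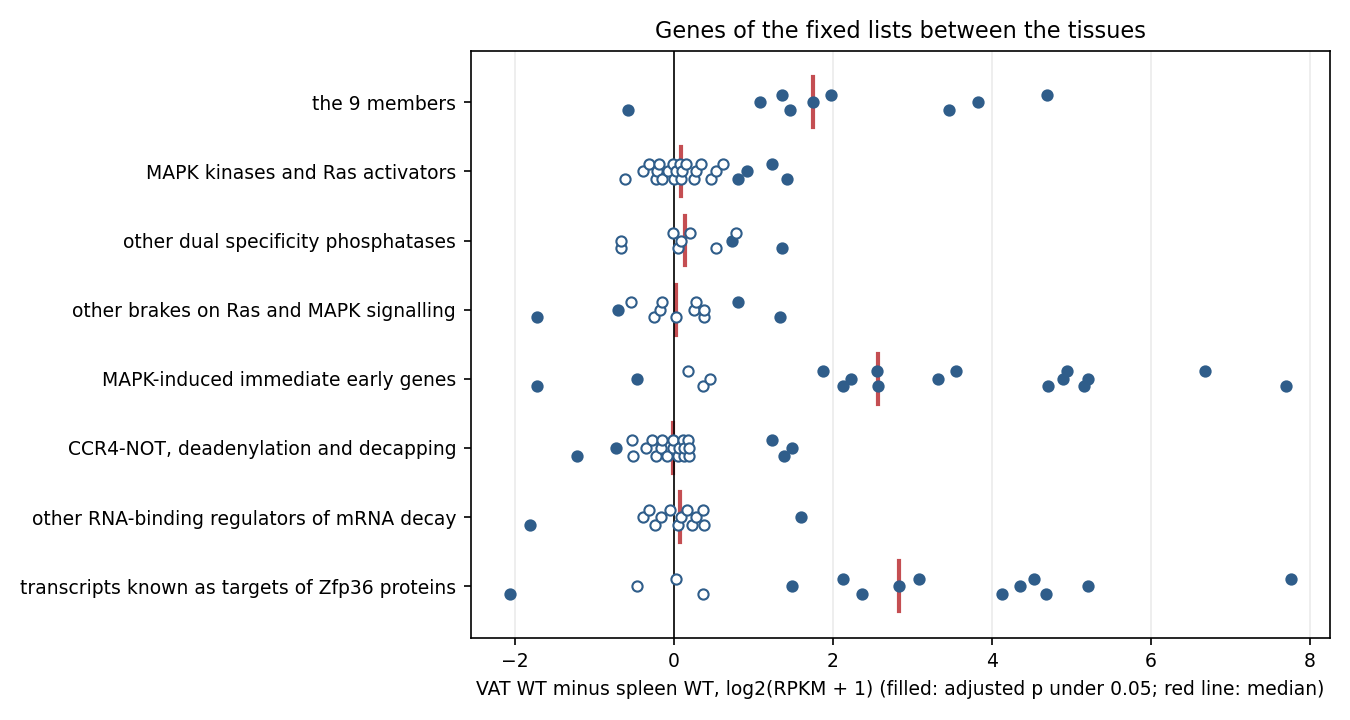
Difference between VAT WT and spleen WT in log2(RPKM + 1) for each tested gene of the 9 members and 7 pathway lists; filled points passed the test and red lines are medians. The members (median 1.75), the immediate early genes (2.57) and the Zfp36 targets (2.83) lie mostly to the right of 0, while the other 5 lists have medians between -0.01 and 0.15.

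Between KO and WT, 0 genes of these 7 lists passed in VAT or in spleen by limma. Of their 116 different tested genes, 12 had an unadjusted p under 0.05 in VAT and 15 in spleen. Over all 10429 tested genes these counts were 767 in VAT and 873 in spleen. In VAT, 17 of the 19 immediate early genes were below 0. Their median was -0.21, against 0.02 over all tested genes, beside -0.31 for Dusp1 and -0.38 for Zfp36. With quantile normalization 15 of the 19 were below 0 and the median was -0.16, beside -0.14 for Dusp1 and -0.08 for Zfp36. The gene with the smallest p among them was Jund, an AP-1 subunit (786 RPKM in WT and 592 RPKM in KO, -0.41 ± 0.13, adjusted p = 0.375). The genes with the smallest p in the other VAT lists included Bcl2 (0.76 ± 0.15, adjusted p = 0.0520), Zc3h12d (0.89 ± 0.19, adjusted p = 0.0902) and Ptpn22 (0.65 ± 0.15, adjusted p = 0.123). For Bcl2 the test was passed in 5 alternatives, for example without VAT WT replicate 2 (0.89, adjusted p = 0.0405). It was also passed when either spleen WT library was left out (adjusted p = 0.0313 and 0.0310), since these enter through the shared spread. In spleen the smallest p among the lists belonged to Klf6, an immediate early zinc finger factor (37.8 RPKM in WT and 60.7 RPKM in KO, 0.66 ± 0.14, adjusted p = 0.346). Without spleen WT replicate 3 it passed (0.68, adjusted p = 0.0170), as did the genes with the smallest p of 5 other lists, Map2k3, Dusp22, Rasa2, Cnot6 and Upf1 (0.72 to 1.48, adjusted p = 0.00289 to 0.0410), in the same fit that called 13.4% of all genes.

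The summed level of the myeloid markers found was lower in VAT than in spleen, mainly through Ctss. Of 10 myeloid markers, 4 were in the table, and their summed level was 12.3 to 15.2 RPKM in VAT WT, 20.2 to 45.6 RPKM in VAT KO and 179 to 240 RPKM in spleen, nearly all of it from Ctss. Ctss, a lysosomal protease also made by lymphocytes, was the one marker called between KO and WT in VAT (1.31 ± 0.25, limma, adjusted p = 0.0449). Of 9 B cell markers, 5 were in the table, summing to 51.0 to 186 RPKM in VAT and 94.7 to 124 RPKM in spleen. Pecam1 was the only one of 8 stromal and endothelial markers in the table. It was at 4.39 to 7.37 RPKM in VAT WT, 8.80 to 11.8 RPKM in VAT KO and 15.9 to 34.9 RPKM in spleen, and was called lower in VAT in WT (-1.85, limma, adjusted p = 0.000878) and in KO (-1.25, adjusted p = 0.0157). Lipe (1.63 to 3.40 RPKM in all libraries) was the only one of 6 adipocyte markers in the table. Of 8 CD8, NK or gamma-delta T cell markers, 2 were in the table, summing to 4.93 to 20.0 RPKM. The part of these cells in the member values was not tested. The adipose Treg programme was present, with 7 of its 8 genes higher in VAT in both genotypes, among them Areg (578 RPKM in VAT WT and 4.87 RPKM in spleen WT) and the interleukin receptor gene Il1rl1 (182 and 3.67 RPKM). Between KO and WT in VAT, 0 of its 8 genes passed by limma and 7 were below 0 (median -0.33, or 6 below 0 and a median of -0.27 with quantile normalization). Pparg, the adipose Treg regulator, had the smallest p of them (-0.60, unadjusted p = 0.00480, adjusted p = 0.304), and Ccr2 and Klrg1 also had an unadjusted p under 0.05. The summed level of the 8 genes was 2247 to 2450 RPKM in VAT WT and 1793 to 1892 RPKM in VAT KO, lower in the same libraries as Dusp1 and Zfp36, and its part in those values was not tested.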

How the data were processed

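Bulk RNA-seq libraries of sorted Tregs were made with the Quick-RNA MicroPrep, SMART-seq v4 and Nextera XT kits, per the labels' protocols. STAR and mm10 are named in the submitters' processing notes. The authors deposited 1 table of RPKM values, per the file headers. Which counter, gene models, gene filter and denominator were used is not given in the sources used here. RPKM values are not counts, so no counting error is given.

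The labels name 11 samples, of which 10 have a matching column. The label of spleen KO replicate 1 has no column of its name, and 1 column, named as a spleen WT replicate 1, has no label. Neither was used, whether they are one library is unknown, and the spleen genotype comparison rests on the other names being right. For 15 genes, symbols turned into dates were restored from their identifiers, and 10987 identifiers were found in the RefSeq table.

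The analysis used log2(RPKM + 1), that is a pseudocount of 1, on the 10429 genes that reached 1 RPKM in 2 or more samples. One limma model (limma 3.58.1, R 4.3.3, trend on, robust off, no covariate) was fitted to the 4 groups, with 6 residual and 6.44 prior degrees of freedom. Two-sided p-values were adjusted by Benjamini-Hochberg over all genes of each of 5 comparisons, and genes under 0.05 were called. The script was tested on simulated data. SDs are over the libraries of a group, and SEs and 95% intervals are from limma.

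The 9 members and the lists were chosen with earlier results of these data known. From each list, up to 3 called genes with the smallest p per comparison were named, or, with none called, the gene of smallest p. Promoters came from RefSeq (GRCm38.p6, 7 of 9 members matched). Regions after the stop codon came from GENCODE M21 (GRCm38) for 9983 tested genes, and the search for TATTTAT was chosen after the data were seen. Tried as alternatives were other pseudocounts (0.1 and 5), other filters (none, or a mean of 5 RPKM), quantile normalization, median ratio scaling, fits of the compared groups alone, a replicate block, sample weights, and leaving out each library.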

Additional observations from a re-analysis of the deposited data

How the results depend on the processing

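The 8 members higher in VAT passed the test in WT in all 19 alternatives, and in KO in all but the fit without spleen KO replicate 3, where Dusp6 did not pass. Dusp2 in WT lost its call in 5 alternatives. With each library left out in turn, the count of members called was 8 to 9 in WT and 7 to 8 in KO, 0 in VAT between KO and WT, 0 to 1 in spleen between KO and WT, and 0 for the interaction. The 1 in spleen was Dusp5 without spleen WT replicate 3, a fit in which the spleen WT group was a single library assumed to vary like the other groups and in which 1395 genes were called. Of the 45 member values, 7 changed sign in some alternative, and none of these was called. The number of all genes called in VAT between KO and WT was 44 as reported, 83 with sample weights, 20 with a pseudocount of 5, 19 without either spleen KO library, 5 without VAT KO replicate 2, and 2 without VAT WT replicate 1 or VAT KO replicate 3, but no member was among them in any of these fits. Median ratio scaling moved the median of all genes in WT between the tissues from -0.12 to -0.01 and the split of called genes from 1116 higher and 1607 lower to 1364 higher and 1085 lower (in KO from 798 and 724 to 904 and 547). Relative to that shift the members kept their directions, Dusp1 at 4.83 and Dusp2 at -0.43. Of 76 values of list genes, which unlike the members were picked for a small p, 0 changed sign. Among them, 37 fits over 10 values lost a call and 21 fits over 16 values gained one. Whether the labels' replicate numbers pair the samples could not be decided from so few libraries. Deviations of same-numbered VAT libraries correlated at -0.09, 0.05 and -0.15, and those of spleen libraries at -0.06. In a group of 2 the deviations mirror each other, so spleen libraries of unlike number differed in sign only (0.06). Same-numbered VAT and spleen libraries correlated at 0.09 and 0.18 in WT and at 0.0031 and 0.0463 in KO, with 2 pairs each. With the replicate block, 9 members were called in WT between the tissues, 8 in KO and 0 in the other comparisons, and no member call changed. The read depth is unknown, so its limits could not be given.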
